A study of Drosophila melanogaster with 9 samples.

Results

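The 10 phototransduction genes described here are ninaE, trp, trpl, Arr1, Arr2, norpA, inaC, inaD, ninaC and ninaA, taken by their FlyBase symbols from the 17489 genes counted in central brains of male w1118CS Drosophila melanogaster. All 10 were found, and all 10 passed the filter on low counts in each comparison. Each sample was total RNA of 10 brains from 7-day-old flies, and each condition had 3 samples, which the sample records call biological replicates while describing more of them per condition. The sample titles carry the letters CD, which the study uses for its control diet, in all 3 conditions. Refed flies had only a water-soaked tissue from 5 PM until lights came on at 9 AM, 16 h later, and then fed freely on 400 mM D-glucose for 2 h. Sated flies were kept on water alone for 1 h before dissection. Fasted flies were kept on water alone for 20 h. The study collected sated flies after their natural morning meal. The refed meal was glucose only, so refed and sated brains differ in food as well as in the fast. If all fasts began at 5 PM, refed and fasted brains were also taken at different hours after lights came on. Effects of feeding therefore cannot be told apart from those of clock time or hours of light. Brains were handled in bulk, so fewer cells of a type and less RNA per cell cannot be told apart in any level below.

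Flies see with rhabdomeric photoreceptors. Light converts rhodopsin, an opsin carrying a retinal-type chromophore, to metarhodopsin, which activates a Gq protein and through it a phospholipase C, and TRP-type cation channels then open. Arrestin binding, protein kinase C and a myosin end the response, and a scaffold protein holds several of these parts together in the light-sensing membrane. The same cascade is used by the compound eyes, by the ocelli, which are the simple eyes on top of the head, and by a small eyelet behind each compound eye. The cells of these organs use different opsins: ninaE encodes the opsin of the outer photoreceptors of the compound eye, Rh3, Rh4, Rh5 and Rh6 those of the inner photoreceptors, with Rh6 also in the eyelet, and Rh2 that of the ocelli. The eyes are not part of the central brain, and how much of the eyes or ocelli was left on these brains was not recorded.

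In the BDGP6 assembly, with coordinates from Ensembl release 115, ninaE (FBgn0002940) lies on 3R at 19886255-19888206 and trp (FBgn0003861) on 3R at 29914521-29920289, both on the minus strand. On 2L are Arr1 (FBgn0000120) at 18078269-18081307, ninaC (FBgn0002938) at 7377702-7384344 and ninaA (FBgn0002936) at 877302-878270, all on the plus strand. On 2R are trpl (FBgn0005614) at 9753697-9765518 and inaC (FBgn0004784) at 16898535-16901575 on the plus strand, and inaD (FBgn0001263) at 22855688-22858794 on the minus strand. Arr2 (FBgn0000121) lies on 3L at 8647261-8648936 on the minus strand, and norpA (FBgn0262738) on X at 4322626-4365408 on the plus strand. All are protein-coding, and no exon of the 10 overlaps another gene on the same strand. Exons of inaD overlap RpL23 on the other strand, and exons of ninaA overlap CG15824 there.

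Reads counted on genes numbered between 4957138 and 7897838 per library, and the 10 genes took between 0.130% and 0.216% of them. Libraries of the same condition were further apart than counting noise alone allows, in every pair. The chi-squared value per degree of freedom was 8.86 and 8.33 for refed replicate 3 with refed replicates 1 and 2. It was 7.90 for fasted replicates 2 and 3, and 2.31 to 4.81 for the other pairs. In 3 libraries a larger share of counted reads lay on the strand opposite to the gene, 20.6% in the second sated library, 24.6% in the first fasted library and 28.5% in the second, against 9.59% to 12.4% in the other 6. Fasted replicate 2 also stood apart in muscle RNA, with 264 CPM summed over Mhc, Act88F, Mlc2 and up, against 18.2 to 74.3 CPM in the other 8 libraries. CPM here are counts scaled to the size of each library, after TMM normalization of the 9 libraries together. Neuronal markers were abundant in every library, at 6194 to 7195 CPM summed over elav, nSyb, Syt1 and brp, as the tissue label says. The lowest sum was that of refed replicate 3. Genes of the corneal lens were close to 0, at 0.185 to 4.72 CPM summed over Crys, retinin and Cpr72Ec, with 0 to 15 counts per gene and library. The highest sums were 4.72 CPM in sated replicate 2, 3.37 in refed replicate 1, 2.20 in fasted replicate 2 and 1.92 in refed replicate 3. These libraries also had the most ninaE, and the others had lens sums of 0.789 CPM or less.

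RNA for most of the cascade was readily detected in these brains. Arr2, the major arrestin of the fly eye, was the most abundant of the 10 per length in 9 of 9 libraries, at a mean of 248 CPM per kb of exon. Mean levels per kb were 93.7 CPM for norpA, 70.8 CPM for Arr1, 40.8 CPM for ninaE, 29.2 CPM for ninaC and 22.4 CPM for trpl. The others were lower, at 15.0 CPM per kb for inaC, 12.8 for trp, 7.09 for inaD and 3.44 for ninaA. Apart from ninaE the order changed little from library to library: ninaE ranked between 2 and 10 of the 10 genes, whereas norpA ranked 2 or 3 and Arr1 3 or 4. In this order Arr2 and norpA were separated, with Arr2 at 120 CPM per kb or more and norpA at 107 CPM per kb or less in every library, and so were inaD, from 5.81 CPM per kb upward, and ninaA, up to 5.21 CPM per kb. The ranges of all other neighbours overlapped, as for inaC, from 6.73 to 22.6 CPM per kb, and trp, from 7.19 to 17.2 CPM per kb.

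The most abundant opsin was not one of the 10. Rh2, the opsin of the ocelli, averaged 264 CPM per kb over the 9 libraries, close to Arr2 and above ninaE. In refed libraries Rh2 stood at 353, 352 and 329 CPM, in sated libraries at 492, 287 and 543 CPM, and in fasted libraries at 292, 145 and 448 CPM. Fasted replicate 2 was the lowest and sated replicate 3 the highest, and the 3 conditions overlapped. Rh2 exceeded ninaE in 8 of 9 libraries, with a ratio of their CPM between 0.984 and 128. The other opsins were low, with means of 2.45 CPM for Rh3, 2.81 CPM for Rh4, 1.68 CPM for Rh5 and 0.243 CPM for Rh6. Rh6 was counted 0 to 4 times per library. Rh7, an opsin known from brain neurons, was even across libraries, at 14.1 to 22.4 CPM.

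**Figure D1:**
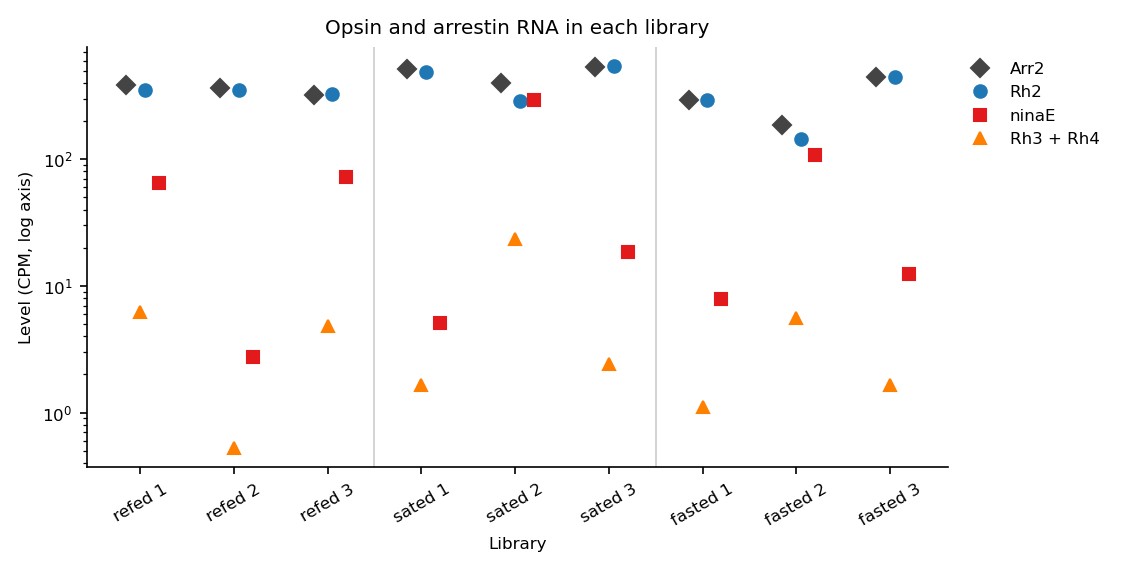
Level of Arr2, Rh2, ninaE and the sum of Rh3 and Rh4 in each library, in CPM on a log axis, with the 3 refed, 3 sated and 3 fasted libraries from left to right. Arr2 and Rh2 lie within a range of 145 to 543 CPM and move together, while ninaE runs between 2.76 and 292 CPM and moves with Rh3 and Rh4.

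ninaE, which encodes the main opsin of the compound eye, had the widest spread of the 10. It stood at 65.3, 2.76 and 71.97 CPM in refed libraries, 5.08, 292 and 18.6 CPM in sated libraries, and 7.94, 108 and 12.4 CPM in fasted libraries. The highest library, sated replicate 2, was 106 times the lowest, refed replicate 2, and libraries of 1 condition differed more than the conditions did. The underlying counts ran between 21 and 1670, so the spread is not one of small numbers. The coefficient of variation over the 9 libraries was 143% for ninaE, against 8.85% to 32.2% for the other 9 genes.

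The libraries with much ninaE were those with much Rh3 and Rh4, the opsins of the inner photoreceptors of the compound eye that detect ultraviolet light. Over the 9 libraries, log2 CPM of ninaE and of the sum of Rh3 and Rh4 correlated with a Pearson r of 0.96 and a Spearman rho of 0.93 (exact permutation tests, two-sided, p = 7.2e-05 and p = 0.00075, adjusted over 21 such relations 0.0015 and 0.016). The r was 0.95 without sated replicate 2 and refed replicate 2, the libraries farthest from the median, and 0.98 for deviations from the means of the conditions. With the other 9 genes ninaE correlated weakly, with r between -0.37 and 0.46 and a median of -0.13. These values share the library they were measured in, and depth and scaling with it.

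**Figure D2:**
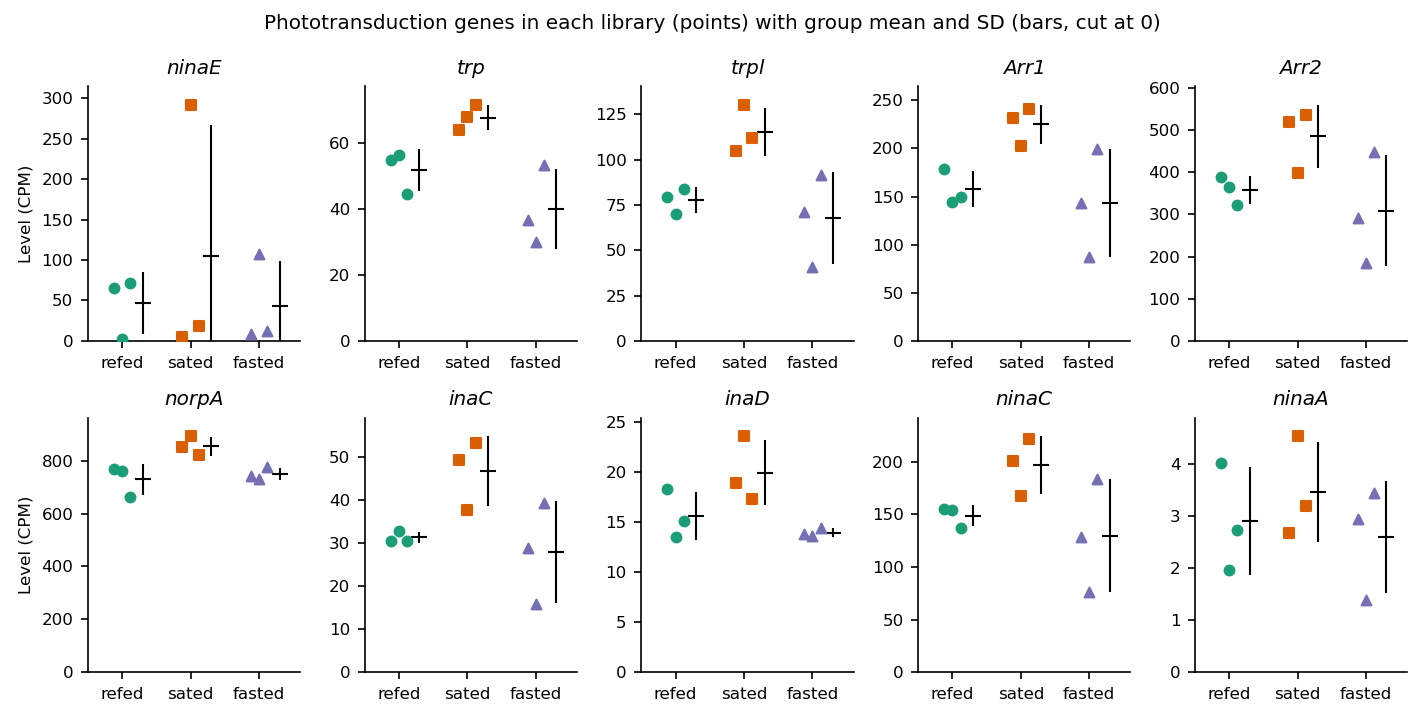
Level of each of the 10 genes in CPM (linear axes starting at 0, with a scale of their own for each gene) in refed, sated and fasted libraries, 3 points each, with the mean and SD of the 3 beside them. Sated libraries lie above refed ones without overlap for trp, trpl, Arr1, Arr2, norpA, inaC and ninaC, and the 3 fasted points are spread widely for most genes.

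Arr1 and Arr2 encode arrestins, which bind metarhodopsin and stop it from activating the G protein. Arr2 stood at 388, 365 and 322 CPM in refed libraries, 520, 399 and 536 CPM in sated libraries, and 292, 186 and 448 CPM in fasted libraries. Arr1 stood at 179, 144 and 150 CPM in refed libraries, 231, 203 and 241 CPM in sated libraries, and 143, 86.9 and 200 CPM in fasted libraries. For both genes each refed library was below each sated library. The fasted libraries ranged from below the refed ones to above them, and for Arr2 into the sated ones. Arr2 was 1.97 to 2.53 times Arr1 in CPM within a library.

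trp and trpl encode cation channels that open after phospholipase C is activated. In refed, sated and fasted libraries trp stood at 54.6, 56.1 and 44.6 CPM, at 63.7, 67.6 and 71.4 CPM, and at 36.6, 29.8 and 53.3 CPM. For trpl the refed libraries had 79.3, 70.0 and 83.8 CPM, the sated libraries 105, 130 and 112 CPM, and the fasted libraries 70.9, 41.1 and 91.6 CPM. For both channels each sated library was above each of the 6 others.

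norpA encodes the phospholipase C of the cascade and is also used outside the eye. It was the most even of the 10, at 767, 759 and 661 CPM in refed libraries, 853, 891 and 819 CPM in sated libraries, and 743, 729 and 775 CPM in fasted libraries. Its coefficient of variation of 8.85% was close to those of Galphaq, the Gq alpha subunit that activates it, and of rdgA, the diacylglycerol kinase, at 10.3% and 6.96%. Sated libraries again lay above all others. The correlation of norpA with Rh2 was weak (r = 0.36).

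inaC encodes the protein kinase C of photoreceptors and ninaC a class III myosin with a kinase domain. inaC stood at 30.6, 32.9 and 30.6 CPM in refed libraries, 49.3, 37.7 and 53.2 CPM in sated libraries, and 28.8, 15.8 and 39.4 CPM in fasted libraries. ninaC stood at 155, 154 and 137 CPM in refed libraries, 201, 167 and 222 CPM in sated libraries, and 128, 76.7 and 184 CPM in fasted libraries. As with the arrestins, refed and sated libraries did not overlap, and fasted replicate 2 was the lowest of all 9.

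inaD encodes the PDZ scaffold that binds the channel, the phospholipase and the kinase. It was low, at 18.3, 13.5 and 15.1 CPM in refed libraries, 19.0, 23.6 and 17.4 CPM in sated libraries, and 13.8, 13.6 and 14.5 CPM in fasted libraries. The strand opposite to inaD held more reads than its own, 1181 against 1008 over the 9 libraries, a ratio of 1.17 against 0.0758 to 0.177 for the other 9 genes, and RpL23, the ribosomal protein gene there, had 10951. How many of the reads on inaD came from the RpL23 transcript was not tested. ninaA encodes a cyclophilin that the ninaE opsin needs to leave the endoplasmic reticulum, and was counted only 7 to 31 times per library. Its levels were 1.40 to 4.54 CPM, and at that depth the SE of its log2 fold changes, 0.33 to 0.39, was larger than that of any of the 10 but ninaE.

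The genes other than ninaE moved together over the libraries. Pairwise r over log2 CPM was 0.87 to 0.99 among Arr1, Arr2, inaC, ninaC, trp and trpl (15 pairs, 9 libraries), and 0.47 to 0.99 over all 36 pairs that leave out ninaE. Of these genes ninaC, Arr2 and inaC moved most closely with Rh2. Pearson's r with Rh2 was 0.96 for ninaC, 0.95 for Arr2 and 0.95 for inaC (rho 0.83, 0.83 and 0.82). By exact two-sided permutation tests the p-values of r adjusted over the 21 relations were 0.0027, 0.0027 and 0.0050, and those of rho were 0.057 for each. Deviations from the means of the conditions gave an r with Rh2 of 0.97, 0.97 and 0.98 for the same genes, and leaving out fasted replicate 2 and sated replicate 3 gave 0.80, 0.82 and 0.75. For Arr1, trp and trpl the r with Rh2 was 0.91, 0.80 and 0.75 but 0.61, 0.37 and 0.11 without those 2 libraries, so these relations rest on them. For norpA, inaD and ninaA the r with Rh2 was 0.36, 0.28 and 0.53, and 0.19, -0.07 and -0.24 without the same 2 libraries. All these relations were computed after the levels had been seen.

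Relative to Rh2 the levels of Arr2 and ninaC were more even than in CPM, with a highest library 1.42 and 1.43 times the lowest, against 2.88 and 2.89 times in CPM. Those of norpA and inaD were less even, at 3.34 and 2.94 times relative to Rh2, against 1.35 and 1.74 times in CPM. Arr2 lay between 98.0 and 110 CPM per 100 CPM of Rh2 in 7 of the 9 libraries. The exceptions were sated replicate 2, at 139, and fasted replicate 2, at 128, the libraries with the most ninaE. Both also had a high opposite-strand share, at 20.6% and 28.5%. So had fasted replicate 1, at 24.6%, where Arr2 was at 100 per 100 CPM of Rh2. ninaC behaved alike, at 40.8 to 44.0 per 100 CPM of Rh2 in those 7 libraries, 58.3 in sated replicate 2 and 53.0 in fasted replicate 2. A sum of 1.001 times Rh2 and 0.362 times ninaE, with no other term, described the Arr2 CPM of the 9 libraries with residuals of 4.37% of the mean (SD), against a coefficient of variation of 28.8% for Arr2 itself. The same kind of sum left 3.49% for ninaC, 5.32% for Arr1, 7.24% for inaC, 7.88% for trpl and 8.89% for trp. It left 13.5% for inaD and 21.7% for ninaA, against coefficients of variation of 20.3% and 32.2%. For norpA it left 19.5%, more than its own variation. This description was chosen after the values were seen and has 2 coefficients for 9 libraries. Whether the parts of it stand for ocelli and compound eye on the dissected brains was not tested.

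**Figure D3:**
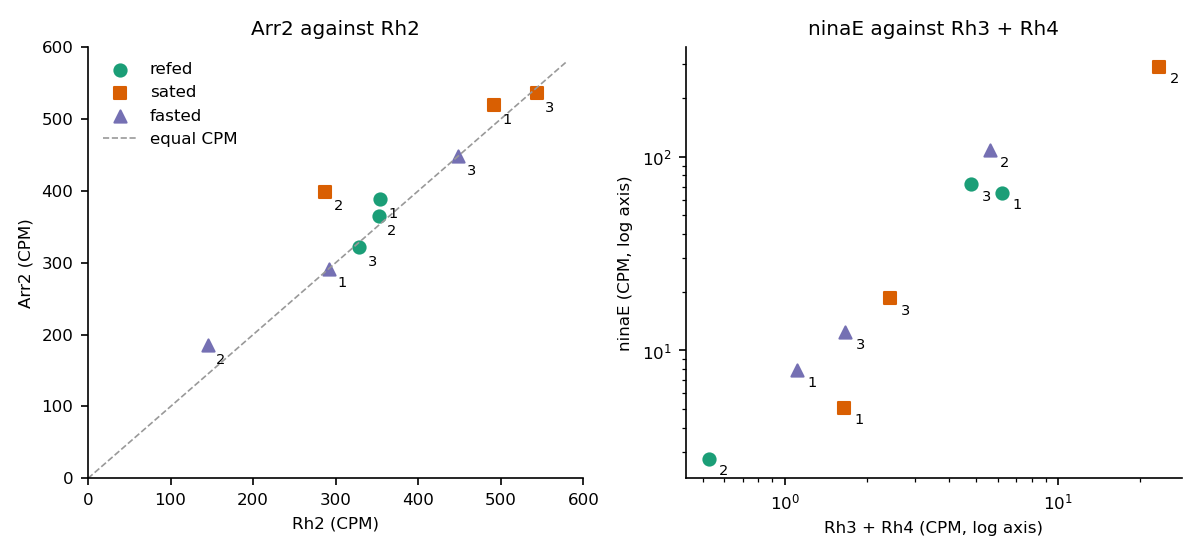
Left, Arr2 against Rh2 in CPM on linear axes, with a dashed line of equal CPM. Right, ninaE against the sum of Rh3 and Rh4 in CPM on log axes. Each point is 1 library, with its condition by colour and shape and its replicate number beside it. Arr2 follows Rh2 closely except in sated replicate 2 and fasted replicate 2, which lie above the line at 139 and 128 CPM of Arr2 per 100 CPM of Rh2.

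Refed brains against sated brains set flies that had fasted and then eaten glucose beside flies that had not fasted overnight. Transcripts of trpl and Arr1 were lower in refed brains. The log2 fold change was -0.58 for trpl (SE 0.09, 0.671-fold, adjusted p = 0.0473, n = 3 each, edgeR's quasi-likelihood test) and -0.52 for Arr1 (SE 0.08, 0.697-fold, adjusted p = 0.0477). These are 2 of 10 genes past the threshold of 0.05, where 0.179% of the 8931 genes tested passed in either direction. The other 8 did not pass. Their log2 fold changes were -0.59 for inaC (SE 0.12, adjusted p = 0.0727), -0.41 for ninaC (SE 0.09, adjusted p = 0.0985), -0.44 for Arr2 (SE 0.10, adjusted p = 0.122) and -0.39 for trp (SE 0.09, adjusted p = 0.129). norpA had -0.23 (SE 0.06, adjusted p = 0.186), and -0.17 without refed replicate 3. inaD had -0.35 (SE 0.15, adjusted p = 0.410), while ninaE had -1.13 with an SE of 1.09, an error as large as the value, and ninaA -0.24 with an SE of 0.33.

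The 10 genes lay on 1 side in this comparison. The log2 fold change was below 0 for 10 of 10, against 50.9% of all genes tested, with a median of -0.43 against 0.00 over all genes. The unadjusted p was under 0.05 with a lower level for 8 of 10, against 5.42% of genes, and the ranges of the groups did not overlap, refed below sated, for 7 of 10, against 8.08%. Since the genes move together over libraries, these counts are not 10 separate observations. Both calls depended on the settings. Over 17 alternatives trpl passed in 8 and Arr1 in 11, with adjusted p between 0.000251 and 0.271 for trpl and between 0.000121 and 0.342 for Arr1, while the fold changes stayed between -0.64 and -0.48 and between -0.62 and -0.46. Without refed replicate 2, without sated replicate 1 or without sated replicate 3 neither passed, without refed replicate 1 only Arr1 did, and without sated replicate 2 trpl, Arr1, Arr2, inaC and ninaC all passed, among 23 of 9120 genes.

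Rh2 lay on the same side, with a log2 fold change of -0.36 (SE 0.17, adjusted p = 0.455). Per 100 CPM of Rh2, the ranges of refed and sated libraries overlapped for 8 of the 9 genes other than ninaE. For trpl they were 19.9 to 25.5 in refed and 20.6 to 45.4 in sated libraries, and for Arr1 41.0 to 50.6 in refed and 44.5 to 70.6 in sated libraries. The exception was inaC, at 8.66 to 9.33 in refed against 9.80 to 13.1 in sated libraries. For ratios to Rh2 this count was not made over all genes. In CPM, 8.08% of the genes tested lay lower in refed brains without overlap. A ratio also carries the spread of Rh2, so overlap here does not show that a difference is absent. apolpp, the lipophorin gene of the fat body, also lay on that side at -0.78 (SE 0.14, adjusted p = 0.0514), though Fbp1, Fbp2 and Lsp2, the more specific fat body markers, were at 0 to 1.40 CPM. apolpp was at 995 to 1455 CPM in refed, 1708 to 2385 CPM in sated and 1235 to 1483 CPM in fasted libraries. It made up nearly all of the sum of these 4 genes, and Fbp2 was at 0 in 9 of 9 libraries. The mean of Fbp1 was higher in refed than in sated libraries, at 1.07 against 0.70 CPM, and that of Lsp2 lower, at 0.09 against 0.26 CPM. The summed muscle markers overlapped, at 18.2 to 42.4 CPM in refed, 28.6 to 74.3 CPM in sated and 22.5 to 264 CPM in fasted libraries. In refed against sated brains 3 of the 4 muscle markers were tested and 0 passed. All 3 were below 0, against 50.9% of all genes, at -0.72 for Mhc (SE 0.36), -1.15 for Mlc2 (SE 0.40) and -0.90 for up (SE 0.36). For Mlc2 and up the unadjusted p was under 0.05 by edgeR's quasi-likelihood test, against 5.42% of genes on that side. The part of Rh2-expressing cells or of other tissue in the changes of trpl and Arr1 was not tested.

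**Figure D4:**
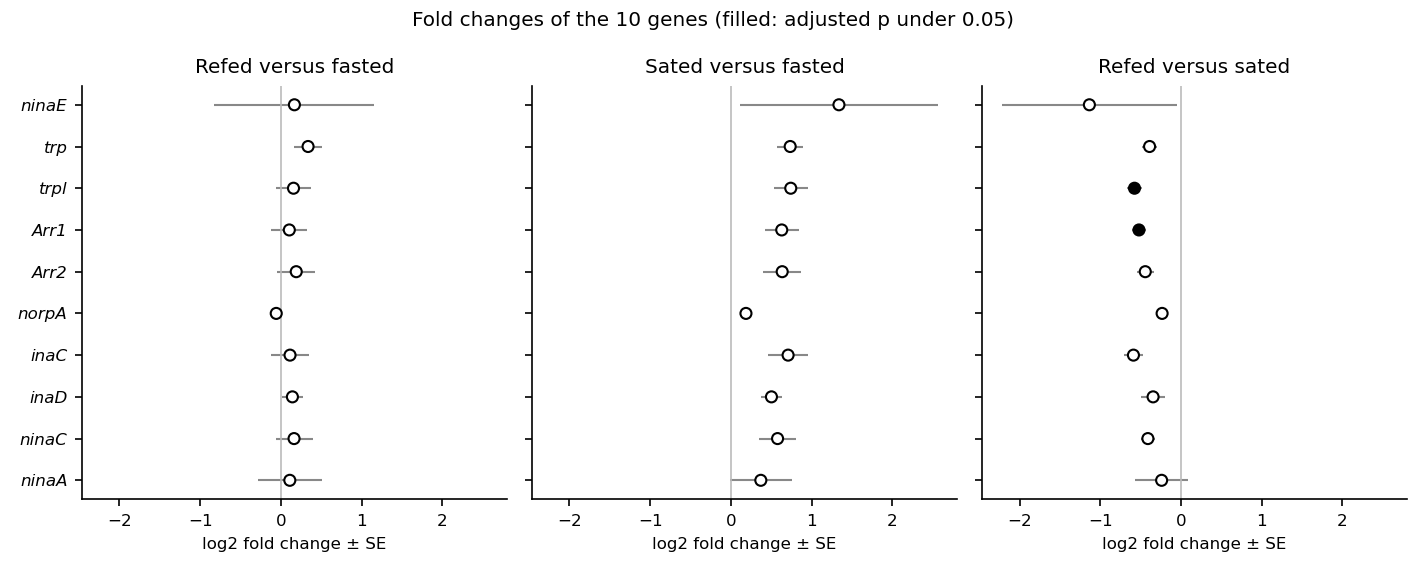
log2 fold change with its SE (bars) of each of the 10 genes in 3 comparisons, from edgeR fits of 3 against 3 libraries. Filled points have an adjusted p under 0.05, which holds for trpl and Arr1 in refed against sated brains only. Values lie around 0.15 (median) in refed against fasted, 0.63 in sated against fasted and -0.43 in refed against sated brains.

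Sated brains against fasted brains set flies without food for 1 h beside flies without food for 20 h. None of the 10 genes passed the threshold with edgeR's quasi-likelihood test, and 0.268% of the 8957 genes tested did. The nearest were norpA, at a log2 fold change of 0.19 (SE 0.04), and trp, at 0.73 (SE 0.16), both with an adjusted p of 0.117. The other values were 0.74 for trpl (SE 0.21), 0.71 for inaC (SE 0.24), 0.63 for Arr2 (SE 0.24), 0.63 for Arr1 (SE 0.21), 0.58 for ninaC (SE 0.23) and 0.50 for inaD (SE 0.13), with adjusted p between 0.221 and 0.453. ninaE had 1.34 with an SE of 1.22 and ninaA 0.37 with an SE of 0.38.

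All 10 values were above 0, against 49.8% of genes tested, and their median was 0.63 against 0.00 over all genes. At an unadjusted p under 0.05, 8 of 10 were higher in sated brains, against 5.05% of genes, and DESeq2 called 1 of them, norpA, among 110 of 14659 genes. The groups did not overlap, sated above fasted, for 5 of 10, trp, trpl, Arr1, norpA and inaD, against 7.69%. The size of the difference leaned on fasted replicate 2, the lowest of all libraries in 7 of the 10 genes and the one with the high muscle RNA. Without it the median log2 fold change was 0.41, and without fasted replicate 3 it was 0.94, with trp called among 30 of 9197 genes. The 6 libraries with an opposite-strand share under 20% include 1 fasted library, and in 1 fit over the 3 conditions that library was assumed to vary like the others. The median was then 0.25, a value that rests on that library. Per 100 CPM of Rh2 the sated and fasted ranges overlapped for 9 of 9 genes. That count was not made over all genes, and the ratios carry the spread of Rh2 too.

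Refed brains against fasted brains set flies given the glucose meal beside flies that stayed on water. No difference of the 10 genes was larger than the spread between libraries. The log2 fold changes lay between -0.06 for norpA (SE 0.06) and 0.34 for trp (SE 0.18), with a median of 0.15 against -0.01 over all genes, and adjusted p between 0.730 and 0.987 by edgeR's quasi-likelihood test. Of the 9025 genes tested 0.111% passed, and 0 of the 10 did, by edgeR or by DESeq2. At an unadjusted p under 0.05, 0 of 10 were higher in refed brains, against 2.66% of genes, and 0 of 10 had groups that did not overlap in that direction, against 7.69%. The value was above 0 for 9 of 10, against 47.1% of genes. That count turned with the libraries used: without fasted replicate 2 the median was -0.07 and 3 of 10 were above 0. Set against fasted replicate 3, the only fasted library with a low opposite-strand share, in the fit over 6 libraries, the median was -0.24 and 2 of 10 were above 0. Without fasted replicate 3 the median was 0.44 and trp was called, in a fit that called 264 of 9339 genes. The 3 comparisons share libraries in pairs, so their values are not independent.

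**Figure D5:**
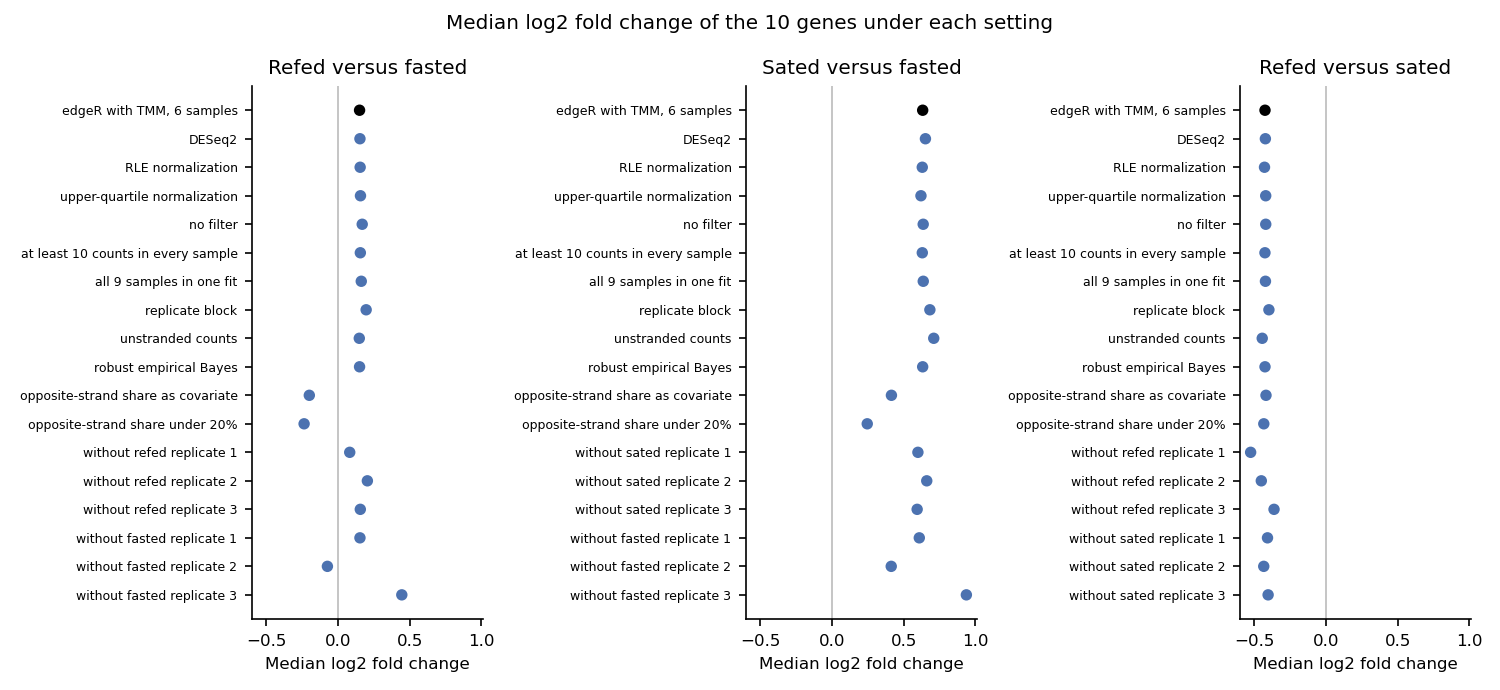
Median log2 fold change of the 10 genes under the settings used for the values above (black, top) and under 17 alternatives (blue), for each comparison. The median stays between -0.53 and -0.36 in refed against sated brains and above 0 in sated against fasted brains, and crosses 0 in refed against fasted brains.

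The rest of the cascade was looked at in 17 signalling partners, of which 15 could be tested and 0 passed the threshold in any comparison. Galphaq stood at 260, 259 and 185 CPM in refed libraries, 267, 271 and 249 CPM in sated libraries, and 253, 243 and 260 CPM in fasted libraries. Its groups overlapped in each comparison, with log2 fold changes of -0.16 (SE 0.11) in refed against sated and 0.05 (SE 0.04) in sated against fasted brains. Gbeta76C, the beta subunit of the eye, behaved like the arrestins instead. It stood at 22.2, 26.0 and 23.3 CPM in refed libraries, 33.0, 26.4 and 36.9 CPM in sated libraries, and 20.7, 12.2 and 28.4 CPM in fasted libraries, with a log2 fold change of -0.44 in refed against sated (SE 0.12, adjusted p = 0.186, no overlap) and 0.62 in sated against fasted brains (SE 0.23, adjusted p = 0.426).

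Among the other partners, rdgA stood at 434 to 520 CPM in refed, 542 to 552 CPM in sated and 501 to 515 CPM in fasted libraries. Refed lay below sated without overlap, at a log2 fold change of -0.18 (SE 0.06, adjusted p = 0.308), and sated above fasted without overlap, at 0.10 (SE 0.03, adjusted p = 0.285). rdgB, the phosphatidylinositol transfer protein, ranged from 498 to 592 CPM, rdgC, the rhodopsin phosphatase, from 136 to 145 CPM, and inaE, the diacylglycerol lipase, from 183 to 214 CPM over the 9 libraries. In the 3 comparisons their log2 fold changes lay between -0.07 and 0.05. rtp, the retinophilin gene, which encodes a partner of the ninaC myosin, came nearest to the threshold among the partners in sated against fasted brains, at 0.73 (SE 0.15, adjusted p = 0.0918), and had -0.55 in refed against sated brains (SE 0.12, adjusted p = 0.113). Its exons overlap Mms19 on the other strand.

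Of 10 genes for the chromophore and for opsin maturation, 6 could be tested and 0 passed. ninaB, which cleaves carotenoids to make the chromophore, was nearest, at 48.5, 44.1 and 52.0 CPM in refed libraries against 63.7, 70.0 and 58.5 CPM in sated libraries, without overlap (log2 fold change -0.41, SE 0.09, adjusted p = 0.0922). Its exons overlap Adgf-D and f-cup on the other strand. Xport-A and Xport-B, which help TRP and the ninaE opsin to mature, had 0 counts in 9 of 9 libraries. Their exons overlap each other on 1 strand, so reads that fit both would not have been counted for either.

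In refed against sated brains the tested genes that build the photoreceptor or set its identity lay on the same side as the 10. Of 8 such genes 5 were tested there and 0 passed. Values were below 0 for 5 of 5, against 50.9% of all genes, with a median of -0.54. The lens genes were too low to test. Mean CPM in refed against sated libraries was 0.71 against 0.28 for Crys, 0.62 against 0.47 for retinin and 0.70 against 1.01 for Cpr72Ec. chp, which encodes the cell surface protein chaoptin, was at 17.2 to 21.3 CPM in refed and 22.9 to 36.0 CPM in sated libraries, and gl, the zinc finger factor Glass, was at 4.25 to 5.06 CPM in refed and 5.94 to 8.51 CPM in sated libraries. In sated against fasted brains 4 of 4 tested were above 0, against 49.8% of all genes, with a median of 0.58. The median in refed against fasted brains was -0.02. For the 5 genes of histamine synthesis and recycling, the transmitter of photoreceptors, 0 passed. In refed against sated brains their median was -0.16, with 3 below 0 and 2 above it, against 50.9% of all genes below 0. Hdc, which makes histamine, had 0.04 (SE 0.16). The gene t had -0.35 (SE 0.16) and lay lower in refed libraries without overlap, as did 8.08% of all genes. For the 4 genes of lamina partners, which receive that transmitter or recycle it, 0 passed in any comparison, and the median in refed against sated brains was 0.11. Median values of the 4 neuron, 4 glia and 4 mushroom body markers in refed against sated brains were -0.05, -0.04 and -0.14. Of these, 4, 2 and 4 were below 0, against 50.9% of all genes. The unadjusted p was under 0.05 (edgeR's quasi-likelihood test) for 0, 1 and 3 of them. The mushroom body markers sNPF, Fas2 and Dop1R1 lay lower in refed libraries without overlap, at -0.15, -0.22 and -0.13, as did 8.08% of all genes.

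The 8 genes outside these lists whose level over the 9 libraries was most like the mean of the 10 were Rgk3 (r = 0.95), Slob (0.93), dtn (0.91), ATPsyndelta (0.90), blp (0.90), lncRNA:CR45979 (0.89), FBgn0029082 (0.89) and Synd (0.89), from 7112 genes of at least 5 CPM. Their levels ranged little, for Rgk3 between 57.3 and 72.1 CPM. With the mean of the 9 genes other than ninaE, each scaled to the same spread, a choice made after the first list was seen, the nearest were Ae2 (r = 0.95), bark, CG14669, CG7656, CG32085, dpr7, dsx and M7BP (0.90), and the 2 lists share no gene. Of these 8, M7BP had the highest r with Rh2, at 0.95, and ranged between 61.3 and 177 CPM.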

How the data were processed

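RNA was measured in 3 refed, 3 sated and 3 fasted samples of 10 central brains, from ribosome-depleted, DNase-treated libraries. The authors aligned reads with STAR to BDGP6, per the labels, and deposited counts per gene that were not normalized, as an unstranded column and 1 column for each strand. The STAR version and the annotation are not given in the sources used here. The column for the strand of the gene was used. Lines that name no gene stayed out of library sizes and tests, and reads on no gene were 21.2% to 31.7% of the reads in that column. Of the identifiers, 17215 had a symbol.

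Tests were run with edgeR 4.0.16 in R 4.3.3. Each pair of conditions was fitted on its own 6 samples with filterByExpr, TMM scaling, the quasi-likelihood test and Benjamini-Hochberg adjustment over all genes tested, with a threshold of 0.05. The SE of a log2 fold change is its size over the root of the F statistic. Correlations used log2 CPM with a prior count of 2, and for Rh3 and Rh4 the log2 of their summed CPM plus 0.5. Levels per kb used the exon length of Ensembl release 115. The fit was tested on simulated counts. Alternatives were DESeq2 1.42.0, other scalings and filters, 1 fit over 9 samples, a replicate block, unstranded counts, robust empirical Bayes, the opposite-strand share as a covariate or a limit, and each sample left out. Ratios to Rh2 and the likeness without ninaE were added after the data were seen. P-values of the fits set a difference between conditions against the spread between these samples. Reads carried no molecular identifiers, so a count is not a number of molecules.

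The 10 genes and the gene lists were chosen with earlier results of these data known. Named genes are the 10, all opsins, Galphaq, Gbeta76C, rdgA, rdgB, rdgC and inaE, any listed gene past the threshold, and the 8 genes most like the 10. Other genes of the lists were named after their values were seen.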

Additional observations from a re-analysis of the deposited data

Results flagged for a closer look

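The change against fasted brains differed between refed and sated brains for trpl and Arr1, tested as the difference of refed and sated brains itself. Refed against sated brains gave log2 fold changes of -0.58 for trpl (adjusted p = 0.0473, edgeR) and -0.52 for Arr1 (adjusted p = 0.0477). Over 17 alternatives trpl passed in 8 and Arr1 in 11. For both, the level was lower in 3 of 3 refed libraries than in any sated library, as for 8.08% of all genes tested. Against fasted brains trpl had 0.16 in refed and 0.74 in sated brains, and Arr1 had 0.10 in refed and 0.63 in sated brains, and none of these 4 values passed the threshold.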

How the results depend on the processing

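In refed against sated brains the median log2 fold change of the 10 genes kept its sign under all 17 alternatives, while the calls did not hold. The settings used above called 2 of the 10 genes, among 16 of 8931 tested. DESeq2 called 5 of the 10, among 51 of 14611, and the fit with no filter 6, among 121 of 14611. With at least 10 counts in every sample 0 of the 10 were called, among 7 of 8269 genes. All 9 samples in one fit also gave 0, among 53 of 9250. Between 0 and 5 were called when 1 replicate was left out. Over all genes, upper-quartile scaling called 25 of 8931, unstranded counts 41 of 9578 and robust empirical Bayes 34 of 8931. With 1 replicate left out 2 to 75 genes were called. In sated against fasted brains 0 of the 10 were called, against 1 with DESeq2, 2 with no filter, 1 with robust empirical Bayes, 1 with the opposite-strand covariate and 0 to 1 with 1 replicate left out. Over all genes 24 were called there, against 110 with DESeq2, 75 with no filter, 55 unstranded, 65 with robust empirical Bayes, 65 with the covariate, 4 over the 6 libraries and 5 to 30 with 1 replicate left out. In refed against fasted brains 0 of the 10 were called, against 0 to 1 with 1 replicate left out. Over all genes 10 of 9025 were called, against 28 of 14654 with DESeq2 and 31 of 14654 with no filter. Unstranded counts gave 20 of 9562 and the covariate 6 of 9025. With 1 replicate left out 2 to 264 genes were called, where 264 of 9339 came without fasted replicate 3. The cause of these differences was not tested.

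The 6 libraries hold 3 refed, 2 sated and 1 fasted library in 1 fit, with the lone fasted library assumed to vary like the others. Directions turned mainly in refed against fasted brains. With the opposite-strand covariate the log2 fold change was -0.21 for trpl, -0.27 for Arr1, -0.22 for Arr2, -0.26 for inaC, -0.22 for ninaC and -0.20 for ninaA. Over the 6 libraries it was -0.039 for trp, -0.24 for trpl, -0.34 for Arr1, -0.32 for Arr2, -0.33 for inaC, -0.30 for ninaC and -0.24 for ninaA. With 1 replicate left out it lay between -0.31 and 2.15 for ninaE, -0.083 and 0.45 for trpl, -0.14 and 0.44 for Arr1, -0.056 and 0.57 for Arr2, -0.087 and 0.018 for norpA, -0.14 and 0.47 for inaC, -0.085 and 0.52 for ninaC, and -0.18 and 0.39 for ninaA. In sated against fasted brains the 6 libraries gave -0.019 for ninaE and -0.22 for ninaA, and ninaE lay between -1.76 and 3.27 with 1 replicate left out. In refed against sated brains ninaE was 1.19 with the covariate, 1.93 over the 6 libraries and between -1.71 and 1.93 with 1 replicate left out. ninaA gave no value with unstranded counts.

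Replicate numbers are shared by the conditions but were not shown to pair the samples. Same-numbered deviations correlated at -0.11 to 0.40 and not above 0.1 for every number of any comparison. In sated against fasted brains they correlated at 0.09, 0.39 and 0.40, against means of -0.05, -0.14 and -0.26 with the other numbers. With the number as a replicate block, 5 of the 10 genes were called in sated against fasted brains (trp, Arr1, Arr2, inaC and ninaC), among 72 of 8957 genes. In refed against sated brains 1 was called, Arr1, among 11 of 8931, with trpl at -0.57 (adjusted p = 0.164, edgeR) and ninaE at 0.12. In refed against fasted brains 0 were called, among 6 of 9025. Depth limits ninaA, at 7 to 31 counts, and the inner photoreceptor opsins.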
